A study of Mus musculus with 4 samples.

Results

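The genes described here carry glucose into the cell, break it down through glycolysis, move lactate, run the pentose phosphate pathway, or belong to the HIF-1 system and its known targets. They are 36 genes picked by name from such lists, and all 36 were found among the 37681 gene IDs of the deposited count tables. By role they comprise 3 glucose transporters, 3 hexokinases, 9 genes of upper glycolysis, 6 of lower glycolysis, 4 of lactate and pyruvate handling, 4 of the pentose phosphate pathway, and 7 of the HIF-1 group.

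Messenger RNA was sequenced from wild-type C57BL/6 mouse marrow cells cultured with L929 supernatant, which supplies M-CSF, the growth factor of macrophages. The 4 groups had 1 library each: cells with an shRNA against lncRNA-COX2 and 100 nM Pam3Cys4 for 5 h, cells without shRNA given the same Pam3Cys4, unstimulated cells with the shRNA, and unstimulated cells without shRNA. Pam3Cys4 is a synthetic lipopeptide that activates the TLR2/TLR1 receptor pair, and an shRNA is a short hairpin RNA that lowers its target by RNA interference. Whether the cells without shRNA held a control construct is not given, although their titles have the unexplained letters EV. With 1 library per group no difference was checked against replicates, and each interval below covers counting error only.

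Glycolysis turns glucose into pyruvate in the cytosol, and macrophages stimulated through Toll-like receptors are known to take up more glucose and release more lactate. The pentose phosphate pathway branches off after the hexokinase step and supplies NADPH and ribose. HIF-1 is a transcription factor whose alpha subunit, Hif1a, is marked for destruction by oxygen-dependent prolyl hydroxylases, and many glycolytic genes are among its known targets, bound at sites with the core ACGTG.

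Each library held 47385277 to 65826838 gene reads over 16916 to 17267 genes, and 32.5 to 34.4% of the summed table entries belonged to no gene. Of 12 macrophage marker genes, 10 to 12 had at least 5 CPM (TMM-scaled counts relative to library size) in every library. Their summed level was 10067 CPM with shRNA and 9683 CPM without it after Pam3Cys4, against 7731 CPM with shRNA and 6567 CPM without it in unstimulated cells. Summed markers of mast cells, red cells and fibroblasts stayed under 1 CPM in every library. Among the other lists Ighm, the immunoglobulin heavy chain gene, had 23.5 CPM after Pam3Cys4 and 40.7 CPM unstimulated with shRNA, against 89.6 and 246 CPM without shRNA. The endothelial marker Vwf had 32.1 and 56.9 CPM in the same libraries with shRNA, against 25.9 and 37.3 CPM without it, and the dendritic cell marker Itgax 1.62 and 0.255 CPM with shRNA, against 24.8 and 4.72 CPM without it. Summed granulocyte markers reached 2.82 to 21.4 CPM. The Y-linked gene Ddx3y had 1116 counts after Pam3Cys4 and 921 unstimulated with shRNA, against 4 and 3 without shRNA. Knockdown of the targeted RNA was not analysed here. Whether the libraries with and without shRNA came from the same animals or cells is not given, so an effect of the shRNA and a difference between cell sources cannot be told apart in any shRNA comparison below. The part of the marker differences in the results was not tested.

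As a group, the 36 genes took 2.31% of gene reads with shRNA and 2.43% without it after Pam3Cys4, and 2.45% with shRNA and 2.33% without it in unstimulated cells. Compared per kilobase of exon, the highest level in each library was that of Aldoa, the aldolase of most tissues, at 1652 to 2033 CPM per kb. Ldha, the lactate dehydrogenase subunit that favours lactate formation, followed at 779 to 1019 CPM per kb, and Pkm, pyruvate kinase, at 643 to 814 CPM per kb. The lowest was Eno2, the enolase known from neurons, at 0.0337 to 1.76 CPM per kb. Between these ends lay the transporter gene Slc2a1 at 110 to 369 CPM per kb, Tpi1, triose phosphate isomerase, at 335 to 403 CPM per kb, and the pentose phosphate gene Tkt, transketolase, at 214 to 260 CPM per kb.

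The levels of several glycolytic enzymes are uncertain, since 27.0 to 29.9% of the summed table entries were alignments to several places and were given to no gene. In the GENCODE vM21 transcripts, every 50-base window of the coding sequence of Pgk1 (phosphoglycerate kinase) and Pgam1 (phosphoglycerate mutase) also occurs in another gene, all of them pseudogenes. The share was 94.2% for Gapdh, glyceraldehyde phosphate dehydrogenase, whose windows recur in 221 other genes, 209 of them pseudogenes. It was 83.3% for Eno1, the main enolase outside neurons, which shares windows with the copy Eno1b. Bnip3, a mitophagy receptor and HIF-1 target, shared 76.8% of its windows, Pkm 52.9%, Gpi1, glucose phosphate isomerase, 40.9%, and Ldha 28.4%. The other members lay at 16.8% or less, and 21 of the 36 had no shared window. Gapdh, an enzyme known for very high mRNA levels, had 692 and 686 counts with shRNA (Pam3Cys4 and unstimulated) and 613 and 732 counts without it.

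**Figure D1:**
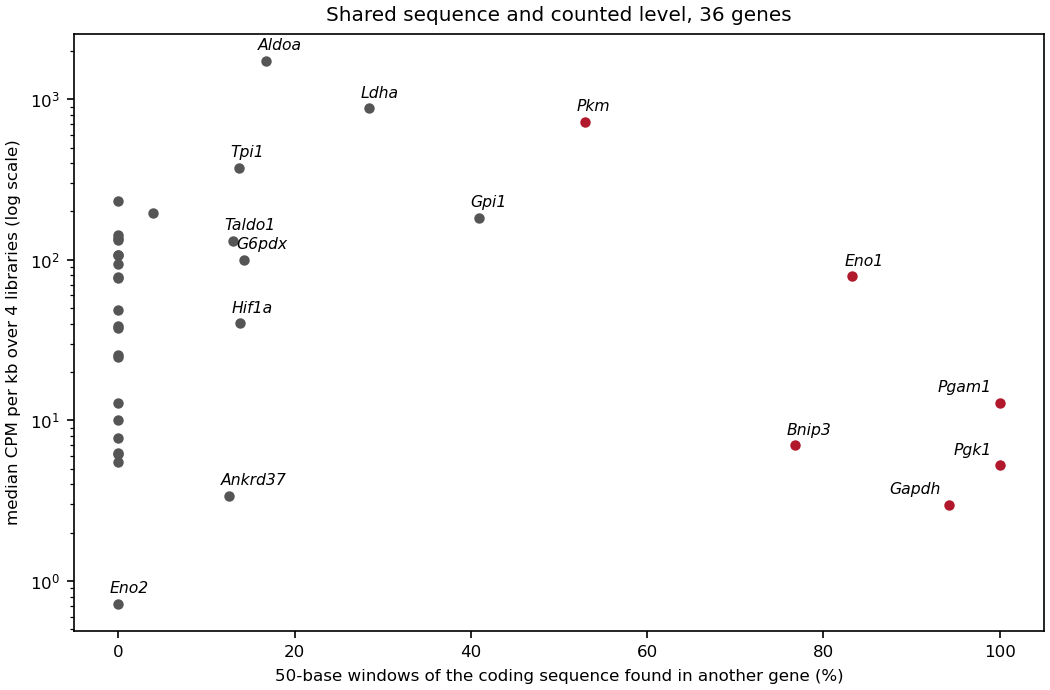
Median level over the 4 libraries (CPM per kilobase of exon, log axis) against the share of 50-base coding windows that also occur in another gene (%), 1 point for each of 36 genes. Red points are the genes with over 50% of their windows shared, from Pkm at 52.9% to Pgk1 and Pgam1 at 100%, and 21 genes stand at 0.

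Upstream sequences are shown for the genes that the stimulation and shRNA results turn on, next to Ldha, whose window holds the most copies of the HIF-1 core. Each is the 250 bases before a start listed by RefSeq on GRCm38.p6, another build than the one the counts were made on, read 5′ to 3′ on the gene's strand. Capitals mark ACGTG or its complement CACGT, the palindrome CACGTG that holds both, and in Eno2 an NF-kB-type motif (GGG, any 2 bases, TTTCC). Slc2a1 lies at chr4:119108495-119108744 on the plus strand, Slc2a6 at chr2:27027999-27028248 on the minus strand, and the first of 2 listed Pfkfb3 starts at chr2:11553930-11554179 on the minus strand. The first of 2 listed Ldha starts has chr7:46845554-46845803 on the plus strand and Eno2 has chr6:124769674-124769923 on the minus strand.
Slc2a1: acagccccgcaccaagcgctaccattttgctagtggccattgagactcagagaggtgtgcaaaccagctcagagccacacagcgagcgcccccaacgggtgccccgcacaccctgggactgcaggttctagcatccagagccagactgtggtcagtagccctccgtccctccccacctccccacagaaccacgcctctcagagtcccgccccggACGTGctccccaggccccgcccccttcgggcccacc
Slc2a6: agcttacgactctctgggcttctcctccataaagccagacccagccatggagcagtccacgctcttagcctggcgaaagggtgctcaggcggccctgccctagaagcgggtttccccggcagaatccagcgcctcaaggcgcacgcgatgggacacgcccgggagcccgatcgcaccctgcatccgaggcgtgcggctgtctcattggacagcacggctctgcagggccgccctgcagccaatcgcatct
Pfkfb3: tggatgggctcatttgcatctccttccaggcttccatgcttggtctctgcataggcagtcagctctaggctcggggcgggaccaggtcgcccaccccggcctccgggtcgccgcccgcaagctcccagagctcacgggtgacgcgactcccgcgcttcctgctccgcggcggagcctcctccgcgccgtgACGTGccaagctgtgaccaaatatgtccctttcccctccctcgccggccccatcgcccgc
Ldha: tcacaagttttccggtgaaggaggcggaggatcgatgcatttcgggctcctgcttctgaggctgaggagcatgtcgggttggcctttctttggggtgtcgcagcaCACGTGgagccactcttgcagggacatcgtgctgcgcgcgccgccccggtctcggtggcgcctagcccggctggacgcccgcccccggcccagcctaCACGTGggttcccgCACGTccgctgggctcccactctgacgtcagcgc
Eno2: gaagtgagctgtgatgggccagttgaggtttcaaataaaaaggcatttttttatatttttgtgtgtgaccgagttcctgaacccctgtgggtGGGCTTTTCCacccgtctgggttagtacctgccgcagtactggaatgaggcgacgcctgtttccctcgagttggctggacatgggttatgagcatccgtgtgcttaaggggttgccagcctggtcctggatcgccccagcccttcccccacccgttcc

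Searched on both strands, ACGTG occurred in 44% of the 50 windows of 35 matched members and in 16.6% of 32851 windows of all genes. Known HIF-1 targets were among the genes picked as members, so this difference in shares is a description only. Windows of a gene can overlap, and Aldoa windows 2 and 3 hold the same copy of the core. CACGTG, which also counts as ACGTG on each strand, occurred in 12% of the members' windows and 6.02% of all. The NF-kB-type motif was in 2% of the members' windows, which is the Eno2 window alone, and in 1.41% of all, and an interferon-type motif (GAAA, any 2 bases, GAAA) was in 2% and 2.98%. In Slc2a1 the core began 36 bases and in Pfkfb3 60 bases before the start. Slc2a6 had none of the 4 motifs in its window. A match describes letters in these windows and is not a measured binding site.

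With Pam3Cys4, the glucose transporter genes Slc2a1 and Slc2a6, the hexokinase gene Hk2, the glycolytic activator Pfkfb3, the lactate exporter Slc16a3 and Hif1a were higher in both shRNA states. The additive edgeR quasi-likelihood test over all 4 libraries, with Benjamini-Hochberg adjustment over 9559 genes at 0.05, called 10 of the 36 members risen and 0 fallen, against 11.9% of all genes risen and 10.9% fallen. At 27.8% the members' share of risen genes was above that of all genes. The members were chosen with earlier results of these data known, so this difference in shares is a description only. This test takes the shRNA states as repeats and has 1 residual degree of freedom, and how far separate cultures would vary is not covered by its p-values. The members' median log2 change was 0.16, against 0.00 for all genes. With library totals as the only scaling, 8 members rose and 2 fell (964 and 2045 of all genes), the median of all genes moved to -0.15 and that of the members to 0.01. The remaining 26 members had log2 changes of -0.64 to 0.49. At an unadjusted p under 0.05, 1 member was lower in the edgeR test, Pfkm, and DESeq2 on the same model called 10 members risen and 1, again Pfkm, fallen. The test was run under 5 alternative settings, and ranges of adjusted p over alternatives below refer to these.

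In bulk RNA, more cells of a type and more RNA per cell cannot be told apart. Slc2a1, which encodes GLUT1, the broadly used glucose transporter, stood at 914 CPM with shRNA and 1295 CPM without it after Pam3Cys4, against 384 CPM with shRNA and 451 CPM without it in unstimulated cells. Both stimulated libraries were above both unstimulated ones, and the ratio was 2.38 with shRNA and 2.87 without it (log2 1.25, interval 1.23 to 1.27, and 1.52, 1.5 to 1.55). It rose by log2 1.39 in the additive test (standard error 0.13, adjusted p = 0.00714). Slc2a6, which encodes GLUT6, a hexose transporter of inner membranes, had 462 CPM with shRNA and 550 CPM without it after Pam3Cys4, against 199 and 222 CPM in the unstimulated libraries with and without shRNA. The stimulated libraries were again the higher pair, 2.33-fold with shRNA and 2.48-fold without it, and Slc2a6 rose by log2 1.26 (standard error 0.11, adjusted p = 0.00665). Slc2a3, the high-affinity transporter GLUT3, did not pass (log2 -0.31, adjusted p = 0.167) and was 1.12-fold lower after Pam3Cys4 with shRNA and 1.39-fold lower without it.

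Among the hexokinases, which trap glucose by phosphorylation, Hk2, the inducible isoform bound to mitochondria, was at 772 CPM with shRNA and 889 CPM without it after Pam3Cys4, against 490 CPM with shRNA and 509 CPM without it in unstimulated cells. The additive rise was log2 0.73 (standard error 0.12, adjusted p = 0.0202). Hk1, the housekeeping isoform, had 695 CPM with shRNA and 696 CPM without it after Pam3Cys4, against 648 CPM with shRNA and 377 CPM without it in unstimulated cells. The unstimulated library without shRNA was thus the low one of 4, and Hk1 did not pass for either factor (adjusted p = 0.156 for stimulation and 0.254 for shRNA). Per kilobase, Hk2 made up 34.5% with shRNA and 42.1% without it of the summed hexokinase level after Pam3Cys4, against 26.7% and 37.4% in the unstimulated libraries with and without shRNA.

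In upper glycolysis the only one of 9 genes that rose was Pfkfb3, whose product makes the sugar bisphosphate that activates phosphofructokinase. Its level was 116 CPM with shRNA and 42.5 CPM without it after Pam3Cys4, against 50.5 CPM with shRNA and 23.1 CPM without it in unstimulated cells. Stimulation went with a higher level in each shRNA state, 2.29-fold with shRNA and 1.84-fold without it, and the additive change was log2 1.04 (standard error 0.14, adjusted p = 0.0143). In the additive test the enzyme subunits themselves changed less than Pfkfb3. Pfkp, one of these subunits, had a log2 change of 0.38 and did not pass (adjusted p = 0.0987). Pfkl, the liver-type subunit, held 78.1 to 79.6% of the summed phosphofructokinase level per kilobase in the 4 libraries. Pfkm, the muscle-type subunit, had 29.6 CPM with shRNA and 21.3 CPM without it after Pam3Cys4, against 38.0 and 40.4 CPM in the unstimulated libraries with and without shRNA. After Pam3Cys4 Pfkm was 1.29-fold lower with shRNA and 1.89-fold lower without it, the latter no smaller in size than the change of Pfkfb3. It did not pass in edgeR (log2 -0.64, adjusted p = 0.0632). It passed in DESeq2 (log2 -0.66, adjusted p = 0.0239), and in edgeR with library totals (log2 -0.80, adjusted p = 0.0251) and without the filter on low counts (adjusted p = 0.0388), with 0.0239 to 0.0652 over alternatives. Aldoa, Tpi1, Gpi1 and Aldoc, the brain-type aldolase, had log2 changes of -0.17 to 0.06 and did not pass.

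Of the 6 genes of lower glycolysis 2 rose, Eno1 and Pgk1, both with most of their coding windows shared with other genes. Eno1 had 599 CPM with shRNA and 461 CPM without it after Pam3Cys4, against 393 CPM with shRNA and 295 CPM without it in unstimulated cells. Its additive change was log2 0.62 (standard error 0.11, adjusted p = 0.0251). Pgk1, counted at only 14.2 CPM with shRNA and 15.6 CPM without it after Pam3Cys4 and 9.31 and 7.88 CPM in the unstimulated libraries with and without shRNA, rose by log2 0.80 (standard error 0.17, adjusted p = 0.037). Pkm was 1.11-fold higher after Pam3Cys4 in each shRNA state and did not pass (log2 0.15, adjusted p = 0.399).

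The lactate exporter gene Slc16a3 (MCT4) had 468 CPM with shRNA and 826 CPM without it after Pam3Cys4, against 343 CPM with shRNA and 535 CPM without it in unstimulated cells. It rose by log2 0.54 (standard error 0.12, adjusted p = 0.0396), a call that was lost with library totals alone (adjusted p = 0.0608, with 0.011 to 0.0608 over alternatives). Ldha, with 2922 CPM with shRNA and 2920 CPM without it after Pam3Cys4 against 3373 and 2579 CPM in the unstimulated libraries with and without shRNA, had an additive change of log2 -0.01 (adjusted p = 0.955). Its ratio was below 1 with shRNA (log2 -0.21, interval -0.22 to -0.20) and above 1 without it (log2 0.18, 0.17 to 0.19). Pdk1, a kinase that inhibits the pyruvate dehydrogenase complex, had a log2 change of -0.06 and did not pass. Slc16a1 (MCT1), a monocarboxylate carrier that moves lactate both ways, had one of -0.28 and did not pass either. With library totals alone Slc16a1 fell (log2 -0.44, adjusted p = 0.0425, with 0.0425 to 0.209 over alternatives).

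None of the 4 pentose phosphate genes passed the edgeR test for stimulation, and 2 of them were higher at an unadjusted p under 0.05. G6pdx, the dehydrogenase that opens the pathway, was nearest, with 355 CPM with shRNA and 354 CPM without it after Pam3Cys4, against 264 CPM with shRNA and 263 CPM without it in unstimulated cells. The shRNA states were within 1 CPM of each other, and the additive change was log2 0.43 (adjusted p = 0.0536). Without the filter on low counts G6pdx passed, at an adjusted p of 0.0477, within 0.0477 to 0.131 over alternatives. Pgd, the second dehydrogenase, had a log2 change of 0.34 (adjusted p = 0.112), and Tkt and Taldo1, which shuffle sugar carbons back to glycolysis, had -0.08 and -0.12.

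In the HIF-1 group 3 of 7 genes rose with stimulation. Hif1a had 268 CPM with shRNA and 277 CPM without it after Pam3Cys4, against 178 CPM with shRNA and 209 CPM without it in unstimulated cells. It rose by log2 0.50 (standard error 0.12, adjusted p = 0.0437), a call lost with library totals alone (adjusted p = 0.0889, with 0.0225 to 0.0889 over alternatives). P4ha1, a subunit of the collagen prolyl hydroxylase and a known HIF-1 target, had 239 CPM with shRNA and 188 CPM without it after Pam3Cys4, against 129 and 103 CPM in the unstimulated libraries with and without shRNA, and rose by log2 0.88 (standard error 0.11, adjusted p = 0.0121). Vegfa, the blood vessel growth factor, rose by log2 0.90 (standard error 0.19, adjusted p = 0.0336). Bnip3, Egln3 and Egln1 had log2 changes of 0.43, 0.43 and 0.01 and Ankrd37 one of -0.42, and none of them passed.

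Pairwise ratios gave fewer calls than the additive test. Being at least 2-fold apart required a ratio of 2 or more, or of 0.5 or less, with an interval that left out 1, and 5 CPM or more in whichever library was higher. With shRNA, 3 of 35 measured members were at least 2-fold higher after Pam3Cys4, Slc2a1, Slc2a6 and Pfkfb3, against 6.3% of all genes, and 0 were lower, against 3.53%. Without shRNA, 3 of 35 were higher, Slc2a1, Slc2a6 and Vegfa, against 7.07% of all genes, and 0 were lower, against 6.51%. The shares of members higher, 8.57% in each state, were near those of all genes. The members' median log2 ratio was 0.14 with shRNA and 0.25 without it, against 0.02 and 0.00 for all genes. With library totals alone 1 member became lower without shRNA, and all genes split into 541 higher and 879 lower.

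**Figure D2:**
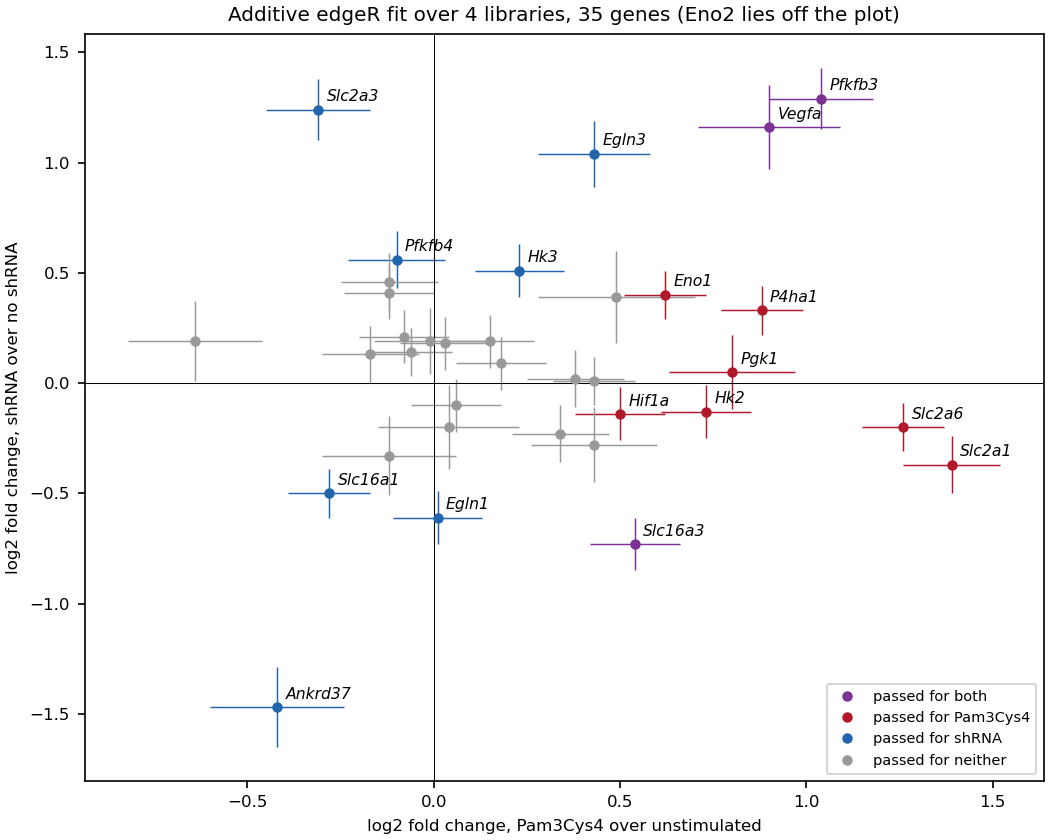
Additive log2 fold change for shRNA over no shRNA (vertical axis) against that for Pam3Cys4 over unstimulated (horizontal axis), 1 point per gene with bars of 1 standard error, coloured by the factors for which the gene passed the edgeR test. Pfkfb3 and Vegfa lie high on both axes, Slc2a1 and Slc2a6 lie farthest to the right, Ankrd37 lies lowest, and Eno2, at log2 4.99 for shRNA, is beyond the plot.

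The ACGTG core was in a window of 8 of the 10 members that rose with stimulation and of 11 of the other 25 matched members, given here as a description. A gene with several listed starts was counted if any of its windows held the core. Vegfa was counted through window 2 alone, which lies downstream of the first listed Vegfa start. Its window 1 had none. No share counted per gene was computed for all genes. The CACGTG form was in 2 of the 10 and 4 of the 25.

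The shRNA went with higher Slc2a3, Pfkfb3, Eno2, Egln3 and Vegfa and with lower Slc16a3, Egln1 and Ankrd37, in both stimulation states. The additive test called 7 of 36 members risen, against 12.3% of all genes, and 4 fallen, against 8.66%. The members' shares were 19.4% and 11.1%. Their median log2 change was 0.13, against 0.04 for all genes, and the remaining 25 members had changes of -0.37 to 0.46. With library totals alone 5 members rose and 5 fell, with 1049 and 1265 of all genes, and the median of all genes moved to -0.06. The test takes the unstimulated and the stimulated library of a state as repeats of the shRNA.

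The member furthest apart was Eno2. It had 357 counts after Pam3Cys4 and 551 unstimulated with shRNA (6.5 and 8.27 CPM), against 8 and 16 counts without shRNA (0.158 and 0.307 CPM). Both libraries with shRNA were far above both without it, by 41.1-fold after Pam3Cys4 (log2 5.36, interval 4.37 to 6.58) and 26.9-fold unstimulated (log2 4.75, 4.04 to 5.57). Eno2 rose by log2 4.99 in the additive test (standard error 0.28, adjusted p = 0.000885). It reached 5 CPM, the level needed for that test, only in the libraries with shRNA, so it was tested through the group where it is high. None of its coding windows was shared with another gene. Eno1 was the dominant isoform with shRNA, at 111 CPM per kb after Pam3Cys4 and 73.1 CPM per kb unstimulated. It had a log2 change of 0.40 for shRNA and did not pass (adjusted p = 0.0711).

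Slc2a3 had 59.5 CPM after Pam3Cys4 and 66.4 CPM unstimulated with shRNA, against 22.6 and 31.4 CPM without shRNA. The libraries with shRNA were higher by 2.63-fold after Pam3Cys4 and 2.11-fold unstimulated, and Slc2a3 rose by log2 1.24 (standard error 0.14, adjusted p = 0.00663). It remained a small part of transporter mRNA, 1.99% and 5.07% of the summed level per kilobase of the 3 transporters with shRNA after Pam3Cys4 and unstimulated, against 0.574% and 2.15% without shRNA. Slc2a1 and Slc2a6 had shRNA changes of log2 -0.37 and -0.20 and did not pass (adjusted p = 0.116 and 0.255). With library totals alone Slc2a1 fell (log2 -0.46, adjusted p = 0.0473, with 0.0473 to 0.121 over alternatives).

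Pfkfb3 was higher with shRNA as well as with stimulation, by 2.72-fold after Pam3Cys4 and 2.18-fold unstimulated. It rose by log2 1.29 (standard error 0.14, adjusted p = 0.00594) and its highest level, 116 CPM, was in the library with both. Its relative Pfkfb4, another isoform of the same bifunctional enzyme, had 31.2 CPM after Pam3Cys4 and 32.2 CPM unstimulated with shRNA, against 20.4 and 22.7 CPM without shRNA. It rose by log2 0.56 (standard error 0.13, adjusted p = 0.0442), a call lost with library totals (adjusted p = 0.0691) and in DESeq2 (adjusted p = 0.0582), with 0.0297 to 0.0691 over alternatives. Per kilobase, Pfkfb3 made up 70.5% with shRNA and 57.3% without it of the summed level of the pair after Pam3Cys4, and 50.3% with shRNA and 39.6% without it in unstimulated cells. Hk3, the hexokinase of myeloid cells, had 605 CPM after Pam3Cys4 and 548 CPM unstimulated with shRNA, against 454 and 362 CPM without shRNA. Its rise of log2 0.51 passed (standard error 0.12, adjusted p = 0.0467), but not with library totals alone (adjusted p = 0.0594, with 0.02 to 0.0594 over alternatives).

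**Figure D3:**
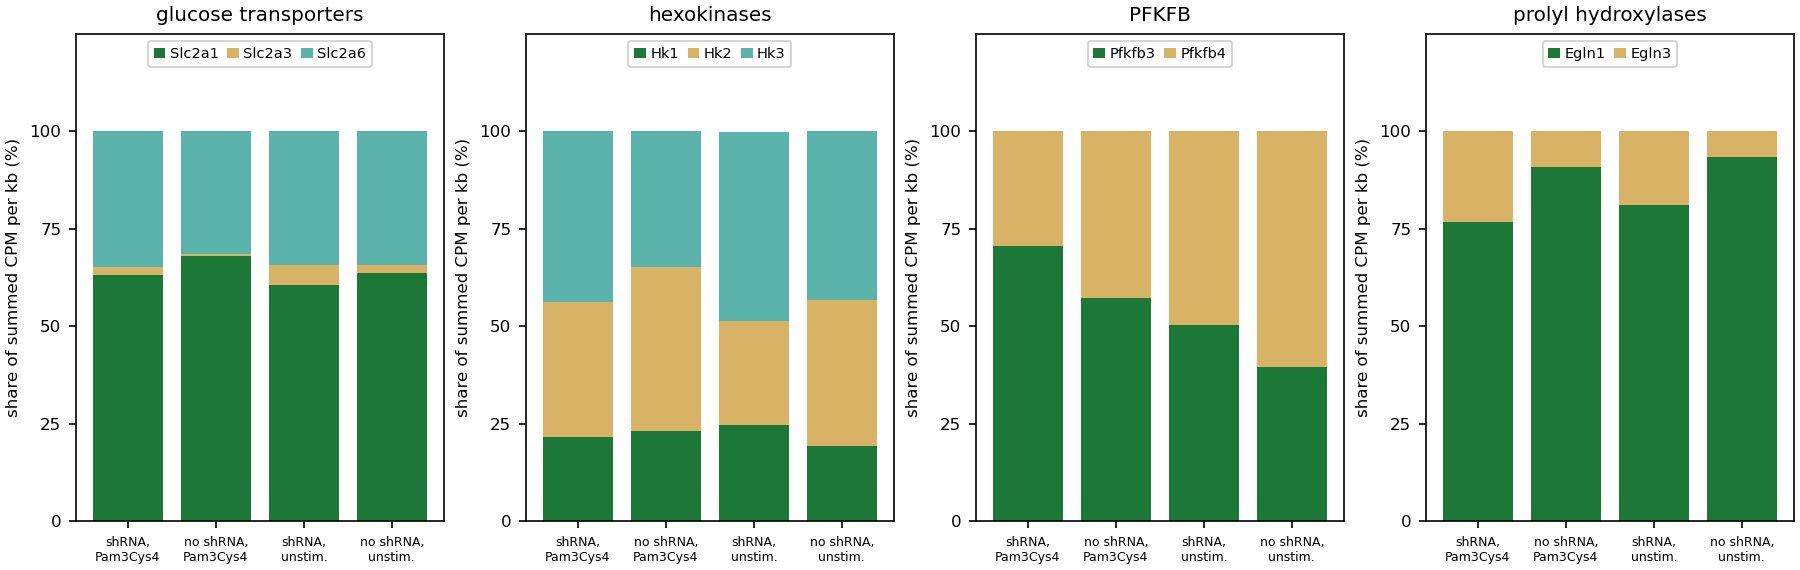
Share of each isoform in the summed CPM per kilobase of its family (%, bars to 100%) in the 4 libraries, for glucose transporters, hexokinases, PFKFB enzymes and prolyl hydroxylases. Pfkfb3 makes up 70.5% of its pair in the library with shRNA and Pam3Cys4 and 39.6% in the one with neither.

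Both lactate carriers were lower with shRNA. Slc16a3 had 468 CPM after Pam3Cys4 and 343 CPM unstimulated with shRNA, against 826 and 535 CPM without shRNA, and fell by 0.73 on the log2 scale (standard error 0.12, adjusted p = 0.019). Slc16a1 had 130 CPM after Pam3Cys4 and 153 CPM unstimulated with shRNA, against 179 and 224 CPM without shRNA, and fell by 0.50 (standard error 0.11, adjusted p = 0.0394). In each stimulation state the library with shRNA was the lower one for both genes. Ldha and Pdk1 had log2 changes of 0.19 and 0.14 and did not pass. The pentose phosphate genes did not pass either, with Taldo1 at log2 0.46 (adjusted p = 0.0677, but 0.0449 without the filter on low counts and up to 0.0908 over alternatives), Tkt at 0.21, G6pdx at 0.01 and Pgd at -0.23.

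Among the members, the prolyl hydroxylase genes Egln3 and Egln1, whose products control HIF-1, moved in opposite directions with shRNA. Egln2, a further prolyl hydroxylase gene outside the members, did not pass for shRNA (log2 -0.33, adjusted p = 0.119). Egln3 (PHD3), itself a known HIF-1 target, had 30.5 CPM after Pam3Cys4 and 25.2 CPM unstimulated with shRNA, against 16.5 and 11.0 CPM without shRNA, and rose by log2 1.04 (standard error 0.15, adjusted p = 0.0132). Egln1 (PHD2), the main oxygen sensor, had 136 CPM after Pam3Cys4 and 145 CPM unstimulated with shRNA, against 224 and 206 CPM without shRNA, and fell by 0.61 on the log2 scale (standard error 0.12, adjusted p = 0.0291). Egln3 thus made up 23.2% and 19.0% of the summed level of the pair per kilobase with shRNA after Pam3Cys4 and unstimulated, against 9.05% and 6.73% without shRNA. Hif1a did not pass for shRNA (log2 -0.14, adjusted p = 0.441).

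Known HIF-1 targets among the members did not share a direction with shRNA. Vegfa had 177 CPM after Pam3Cys4 and 119 CPM unstimulated with shRNA, against 98.9 and 42.4 CPM without shRNA. The unstimulated library without shRNA was the lowest and the library with both treatments the highest, and Vegfa rose by log2 1.16 with shRNA (standard error 0.19, adjusted p = 0.0179). Ankrd37, an ankyrin repeat gene used as a hypoxia marker, had 150 counts after Pam3Cys4 and 226 unstimulated with shRNA, against 356 and 526 counts without shRNA. The libraries with shRNA were lower by 2.58-fold after Pam3Cys4 and 2.97-fold unstimulated, and Ankrd37 fell by 1.47 on the log2 scale (standard error 0.18, adjusted p = 0.00831). It entered that test through the libraries without shRNA alone, where it reached 5 CPM. Of its coding windows 12.6% also lie in the neighbouring gene Lrp2bp. P4ha1 and Bnip3 had changes of log2 0.33 and -0.28 and did not pass.

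**Figure D4:**
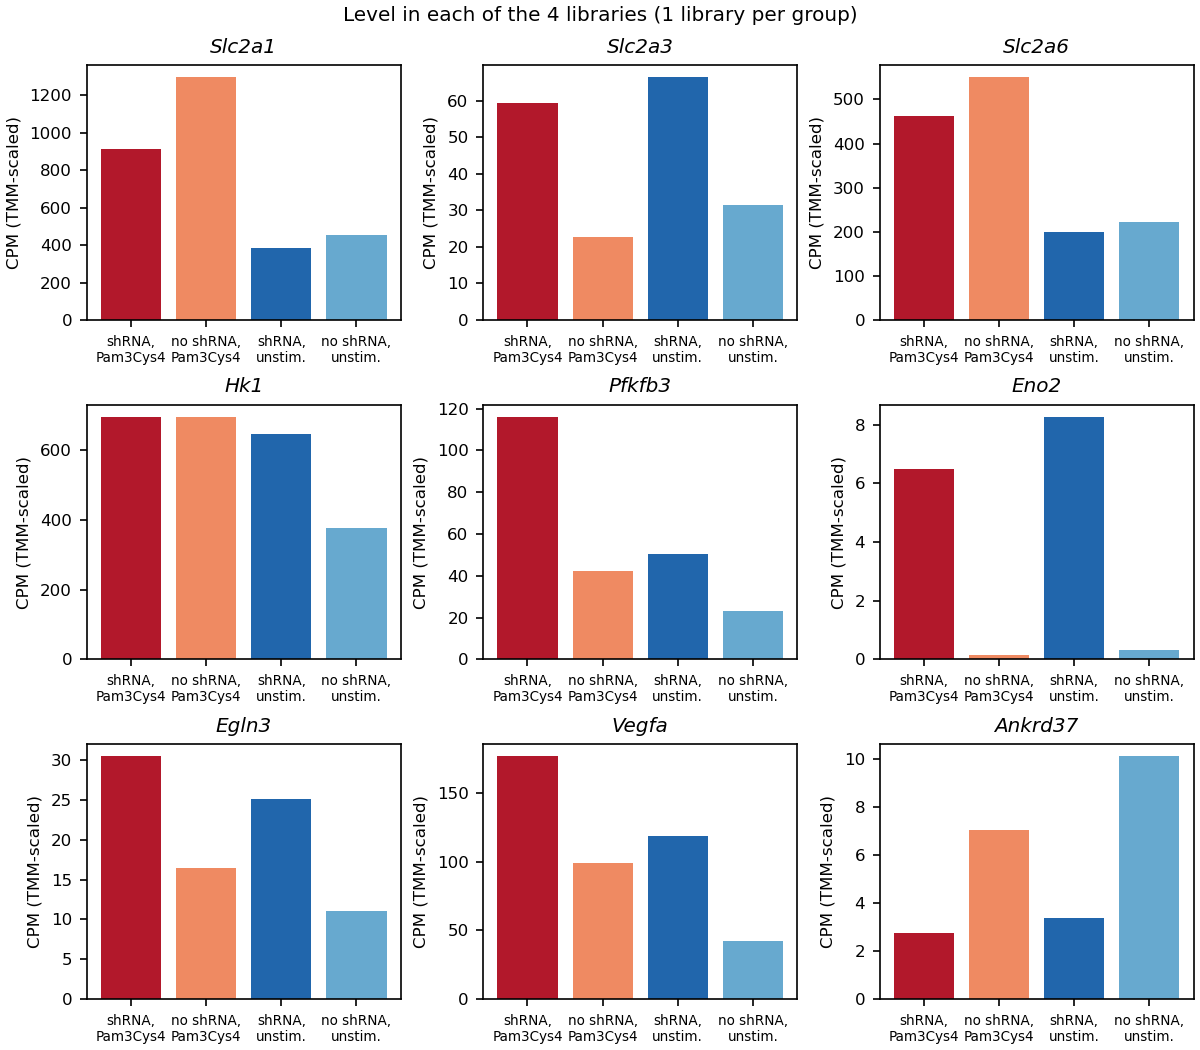
Level (TMM-scaled CPM, bars from 0) of the 9 genes that were at least 2-fold apart in a pairwise comparison or called in the ratio of ratios, 1 bar per library. Eno2 is near 0 in both libraries without shRNA, Pfkfb3 and Vegfa peak in the library with shRNA and Pam3Cys4 at 116 and 177 CPM, and the unstimulated library without shRNA is the low one for Hk1.

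In pairs after Pam3Cys4, 3 of 36 members were at least 2-fold higher with shRNA, Slc2a3, Pfkfb3 and Eno2, against 9% of all genes, and 1 was lower, Ankrd37, against 5.58%. In unstimulated cells 5 of 36 were at least 2-fold higher, Slc2a3, Pfkfb3, Eno2, Egln3 and Vegfa, against 7% of all genes, and 1 was lower, Ankrd37, against 4.82%. Eno2 reached 5 CPM only with shRNA and Ankrd37 only without it, so each was measured through the libraries where it is high. After Pam3Cys4 the share of members higher, 8.33%, was near that of all genes, and in unstimulated cells it was 13.9%. The members' median log2 ratio was 0.03 after Pam3Cys4 and 0.18 unstimulated, against 0.05 and 0.02 for all genes.

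**Figure D5:**
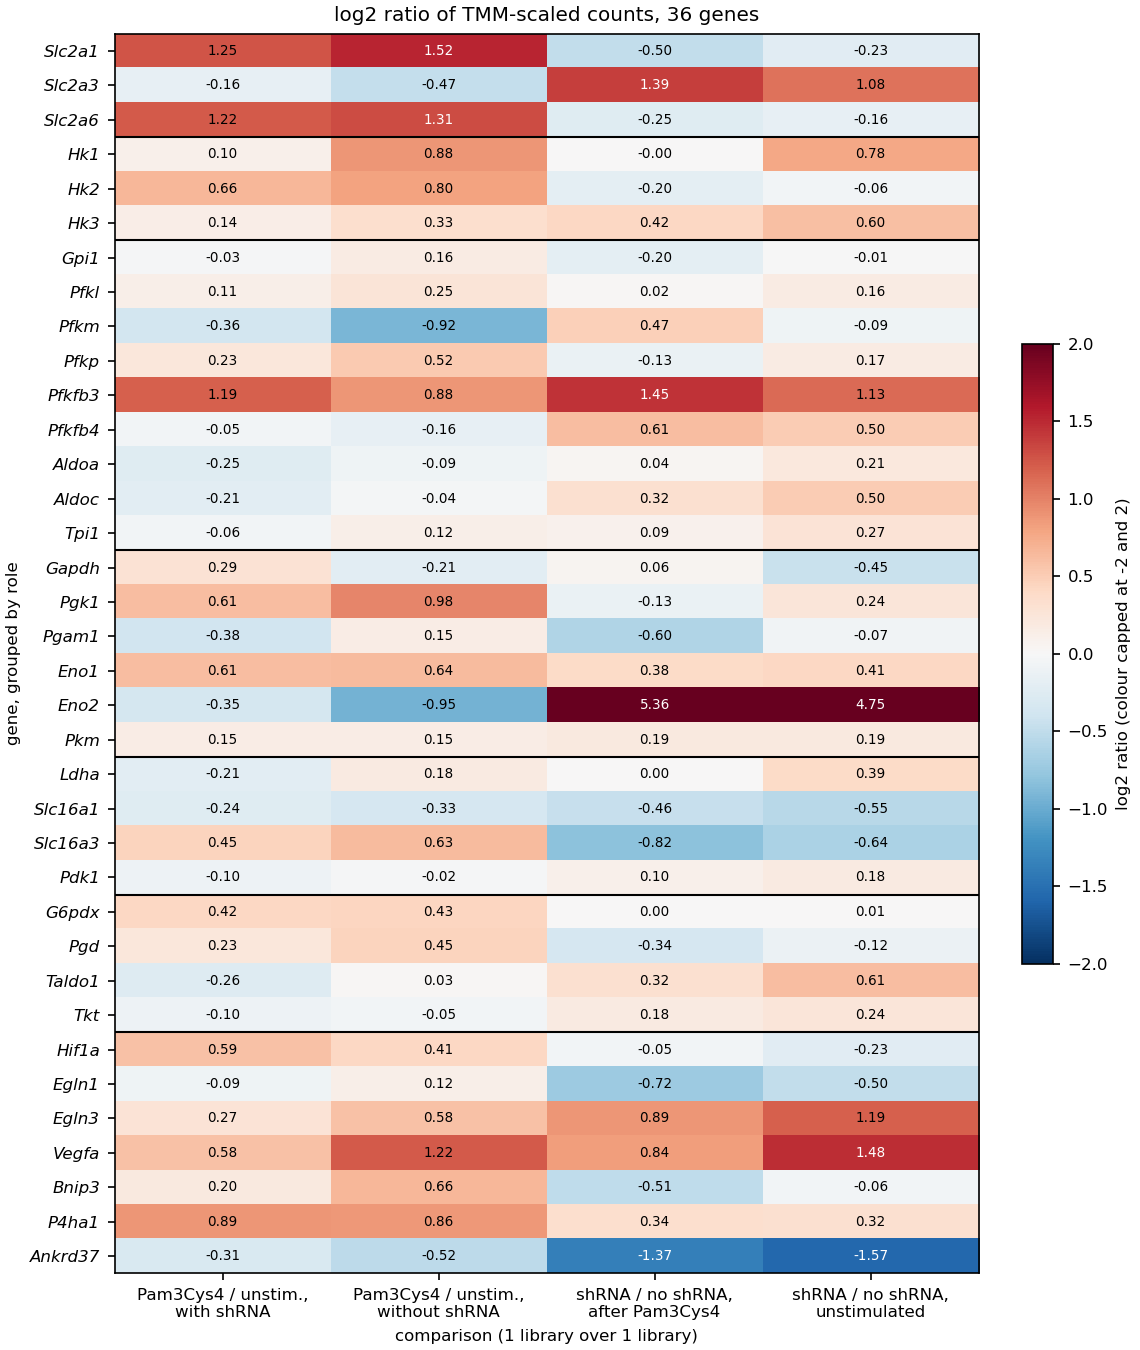
Log2 ratio of TMM-scaled counts for each of the 36 genes (down the page, grouped by role) in the 4 pairwise comparisons, with the value printed in each cell and the colour capped at -2 and 2. Slc2a1 and Slc2a6 have values above 1 in both Pam3Cys4 comparisons, and Slc2a3, Pfkfb3 and Eno2 in both shRNA comparisons, where Ankrd37 is at -1.37 and -1.57.

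Over both factors 3 members passed for stimulation and for shRNA, Pfkfb3, Vegfa and Slc16a3, and 18 passed for neither. The share of all genes that passed for both was not computed, so these counts are a description only. Pfkfb3 and Vegfa rose with each factor, and Slc16a3 rose with stimulation and fell with shRNA.

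Dividing each gene's stimulation ratio with shRNA by the one without it gives a ratio of ratios. It was at least 1.5-fold smaller for 2 of 35 members, against 5.71% of all genes, and larger for 0, against 7.21%. Hk1 was 1.07-fold higher after Pam3Cys4 with shRNA and 1.85-fold higher without it (log2 ratio of ratios -0.78, interval -0.81 to -0.75). Vegfa was 1.49-fold higher after Pam3Cys4 with shRNA and 2.33-fold higher without it (log2 -0.64, -0.73 to -0.56). For both genes the low value was that of the unstimulated library without shRNA, which enters the stimulation ratio without shRNA and the shRNA ratio of unstimulated cells alike. Spread between single libraries and a difference between the shRNA states cannot be told apart here. Over the members the median was log2 -0.16 with 26 of 35 negative, against 0.02 with 4622 of 9857 negative for all genes. Just under the threshold lay Pfkm at log2 0.56 and Gapdh at 0.50 on the larger side and Pgam1 at -0.53 on the smaller side, and both Gapdh and Pgam1 have nearly all of their coding windows shared with other genes.

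Further genes of the same pathways were taken from 8 lists of 132 genes, also chosen with earlier results of these data known. Their calls for stimulation are to be read against 11.9% of all genes risen and 10.9% fallen. For stimulation, 0 of 6 measured genes in the list of other glycolytic enzymes and paralogs passed the edgeR test (2 were lower at an unadjusted p under 0.05). In the list of other glucose transport and phosphorylation 2 of 3 measured genes fell, led by the intracellular transporter Slc2a8 (log2 -1.22, standard error 0.16, adjusted p = 0.0125). Of 15 genes of lactate, pyruvate and the pyruvate dehydrogenase complex 0 rose and 2 fell, Pdk2, another kinase of that complex (log2 -2.19), and its phosphatase regulator Pdpr (log2 -0.78). In the pentose phosphate list of 9 genes Tigar, which steers sugar phosphate towards that pathway, rose by log2 0.54, and the ribose phosphate kinase gene Prps2 fell by 1.07. In the glycogen list of 12, Gys1, glycogen synthase, rose by log2 0.67, and the phosphorylase kinase subunit Phka2 fell by 1.10. Of 15 regulators of glucose use Myc, a transcription factor that drives glycolytic genes, rose by log2 1.47, with 42.8 CPM with shRNA and 36.3 CPM without it after Pam3Cys4, against 11.5 CPM with shRNA and 17.6 CPM without it in unstimulated cells, while Ppargc1b, a coactivator of mitochondrial genes, fell by 1.02. The list's other calls were Mlx (log2 0.61) and Sirt3 (log2 -0.78).

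The HIF lists moved in both directions with stimulation. Of 11 other genes of the HIF system, the ubiquitin ligase genes Vhl and Siah2 rose by log2 0.62 and 0.84, and Epas1, which encodes HIF-2 alpha, fell by 1.09. Of 28 further HIF-1 targets 8 rose and 4 fell, against 11.9% and 10.9% of all genes, with a median log2 change of 0.39, against 0.00. Maff, a small bZIP factor, rose by log2 1.76, and Ero1l, an oxidase of protein folding, by 1.05, while Zfp395 fell by 2.62.

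With shRNA, 5 of the 28 HIF-1 targets rose and 9 fell, against 12.3% and 8.66% of all genes, with a median log2 change of -0.13, against 0.04. Car12 and Stc2, both among the 9, reached 5 CPM in the libraries without shRNA alone. Car12, a carbonic anhydrase, had 0 counts after Pam3Cys4 and 2 unstimulated with shRNA, against 1799 and 2667 counts without shRNA. Stc2, stanniocalcin, had 0 and 2 counts in the same libraries with shRNA, against 1570 and 1168 counts without it. Against a floor of 3 counts per library, Car12 was at least 652-fold and Stc2 at least 569-fold lower with shRNA after Pam3Cys4. Their unstimulated log2 ratios were -10.74 (interval -13.78 to -8.88) and -9.54 (-12.59 to -7.69). Zfp395 rose by log2 2.32 and Plin2, a lipid droplet coat protein, by 1.68.

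The other lists had calls in both directions for shRNA, to be read against the same shares of all genes. Of 11 genes of the HIF system 2 rose and 2 fell, with Epas1 at 6.03 CPM after Pam3Cys4 and 17.3 CPM unstimulated with shRNA, against 23.4 and 37.7 CPM without shRNA (log2 -1.53, standard error 0.24, adjusted p = 0.0159). Galm, which converts glucose between its ring forms, rose by log2 1.64, 1 of 6 measured genes in the list of other glycolytic enzymes and paralogs. Of 15 lactate and pyruvate genes 1 rose and 3 fell, among them Pcx, pyruvate carboxylase, with 28.2 CPM after Pam3Cys4 and 28.7 CPM unstimulated with shRNA, against 83.8 and 92.3 CPM without shRNA (log2 -1.63, standard error 0.13, adjusted p = 0.00199). Among 15 regulators Arrdc4 rose by log2 2.28 and its relative Txnip, both restrainers of glucose uptake, fell by 0.91, with 2 further falls. In the glycogen list of 12, 2 rose and 1 fell, the last being Ppp1r3b, a glycogen-targeting phosphatase subunit, by 2.06. None of the 9 other pentose phosphate genes passed the edgeR test for shRNA, with 1 higher and 1 lower at an unadjusted p under 0.05. The same held for the 3 genes of other glucose transport and phosphorylation, with 1 higher and 0 lower.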

How the data were processed

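Libraries came from an Illumina mRNA kit and were read at 50 bases, per the labels' protocols. The submitters' processing notes name CASAVA 1.8, TopHat, HTSeq and NCBIM37. Other versions, the annotation and whether counting used strand are not given in the sources consulted. The deposited values are whole-number read counts per gene in 1 table per library, made by the authors with HTSeq per the submitters' processing notes. Entries that name no gene (32.5 to 34.4% of each table's sum) were left out.

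Gene symbols (32642 of 37681 IDs), exon lengths and 50-base windows came from GENCODE vM21, on another build, so no coordinates of the counts are given. TMM factors of 0.924 to 1.1 were computed with edgeR 4.0.16 (R 4.3.3). Pairwise ratios have exact conditional binomial 95% intervals (SciPy 1.17.1), with a minimum of 5 CPM in the higher library. Ratios of ratios have delta-method intervals, with minima of 10 counts in every library and 5 CPM in the highest. The edgeR quasi-likelihood test fitted shRNA plus stimulation, where 2 or more libraries reached 5 CPM. It had 3.76 prior degrees of freedom and a common coefficient of variation of 0.137, and an interaction would enter its error. Intervals cover counting error only, since reads without molecular identifiers are not independent molecules. The pairwise ratios and the edgeR additive test were each tried on simulated data.

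Alternatives were library totals, DESeq2 1.42.0 size factors and Wald test, other filters, fold thresholds and a robust prior. The members and the lists of other genes were chosen with earlier results of these data known. All members are accounted for, those at least 2-fold apart in any comparison are given in every library, and of each other list up to 4 genes with the largest additive changes could be named. Some genes within this rule are not reported here. Promoter windows were matched by symbol for 35 of 36 members, all but Slc2a3.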

Additional observations from a re-analysis of the deposited data

Results flagged for a closer look

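Gapdh moved in opposite directions after Pam3Cys4 in the shRNA states. Its log2 stimulation ratio was 0.29 with shRNA (interval 0.14 to 0.45) and -0.21 without it (-0.37 to -0.05), a log2 ratio of ratios of 0.50. The difference was not tested, since each ratio compares single libraries. The ratios rest on 613 to 732 counts per library, and 94.2% of the 50-base windows of the Gapdh coding sequence also occur in other genes.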

How the results depend on the processing

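No paired analysis was possible because each group had 1 library, and for the same reason no library could be left out. With a fold threshold of 1.5 in place of 2, the members apart numbered 8 after Pam3Cys4 with shRNA and 12 without it, and 10 with shRNA after Pam3Cys4 and 10 in unstimulated cells. Higher and lower, these were 8 and 0, 11 and 1, 6 and 4, and 8 and 2 members, against 13.6 and 11%, 15.2 and 15.6%, 17 and 12%, and 13.2 and 10.2% of all genes. With a threshold of 2 in place of 1.5, the ratio of ratios called 0, against 1.94% of all genes larger and 1.64% smaller. The other settings kept each comparison's total of members called, higher and lower together, within 1.5 times. Within these totals, members fallen with stimulation numbered 2 with library totals, 1 in DESeq2 and 1 without the filter, in place of 0. No additive change that passed the test turned its direction. Small changes that did not pass could, as with library totals for Egln1 (-0.14) and Gpi1 (-0.09) with stimulation and G6pdx (-0.09) with shRNA. With library totals alone the all-gene median of the log2 ratios was -0.11 for Pam3Cys4 with shRNA, -0.18 without it, -0.02 for shRNA after Pam3Cys4 and -0.10 unstimulated. The members' medians were then 0.01, 0.07, -0.04 and 0.06 in the same order, and the split of all genes at least 2-fold apart after Pam3Cys4 with shRNA was 501 higher and 466 lower. In the additive test, library totals gave 964 risen and 2045 fallen genes for stimulation (1138 and 1045 with TMM scaling) and 1049 and 1265 for shRNA (1171 and 828). Counting error was small for most members, but 8 and 16 counts limit Eno2 without shRNA.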
